A study of Homo sapiens with 9 samples.

Results

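Chemokines that tumour cells can make themselves were followed through 10 genes, taken by name from the 36753 genes with values: CXCL1, CXCL2, CXCL3, CXCL5, CXCL6, CXCL8, CCL2, CCL5, CCL20 and CX3CL1. All 10 had 1 Ensembl identifier each. The cells were PANC-1, an established line grown from a carcinoma of the human pancreas, and every group was transfected and harvested after 48 hours. The control group received controls that are not described further, the siSIRT6 group an siRNA against SIRT6, a nuclear deacylase of histones, and the siKDM5C group an siRNA against KDM5C, a demethylase of lysine 4 of histone H3, with 3 libraries per group. The sources used here name neither the siRNA sequences nor how many were used, and all libraries come from a single cell line. Nothing in the labels says that the 3 libraries of a group came from separate cultures, so p-values measure only the spread between these libraries, which may be technical.

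Chemokines are small secreted proteins that attract leukocytes through receptors coupled to G proteins, and their names follow the spacing of the first conserved cysteines (CC, CXC, CX3C). CXCL1, CXCL2, CXCL3, CXCL5, CXCL6 and CXCL8 carry a Glu-Leu-Arg motif before the first cysteine and recruit neutrophils, mainly through CXCR2. CCL2 draws monocytes through CCR2, CCL5 draws T cells and monocytes, CCL20 is the ligand of CCR6, and CX3CL1 (fractalkine) is made as a membrane protein that ligates CX3CR1. In pancreatic carcinoma such ligands are known from tumour cells as well as stroma, and many of their genes are classical targets of NF-kB.

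The 6 CXC genes lie together on chromosome 4 (GRCh38), in the order CXCL8 (73740506 to 73743716), CXCL6, CXCL1 (73869393 to 73871242), CXCL5, CXCL3 (74036589 to 74038807) and CXCL2 (74097035 to 74099293). CCL2 (34255218 to 34257203) and CCL5 (35871491 to 35880793) are on chromosome 17, CCL20 (227805739 to 227817564) is on chromosome 2 and CX3CL1 (57372458 to 57385048) on chromosome 16. RefSeq promoter sequence (GRCh38.p14) was at hand for 7 of the 10 genes. The 110 bases before the annotated start are printed for 5 of them, because CXCL1, CXCL2 and CXCL3 are near copies here and yet CXCL1 took another course than CXCL2 and CXCL3 after siSIRT6. Each is written 5′ to 3′ on the gene's own strand. The start is that of RefSeq, which can differ from the gene intervals above, taken from GENCODE. The windows of CXCL2 and CXCL8 lie partly inside those intervals, and the windows of CXCL3 and CCL20 wholly inside. Capitals mark GGAATTTCC in the CXC genes. In CCL20 they mark the kappaB consensus, a pattern for NF-kB binding sites, which reads there on the opposite strand.
CXCL1: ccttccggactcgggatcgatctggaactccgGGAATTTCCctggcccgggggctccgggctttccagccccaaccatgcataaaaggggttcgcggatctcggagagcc
CXCL2: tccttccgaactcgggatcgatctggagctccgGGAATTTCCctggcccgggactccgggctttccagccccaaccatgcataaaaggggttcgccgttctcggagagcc
CXCL3: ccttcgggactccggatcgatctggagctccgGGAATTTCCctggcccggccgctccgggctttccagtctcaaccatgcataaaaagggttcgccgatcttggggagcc
CXCL8: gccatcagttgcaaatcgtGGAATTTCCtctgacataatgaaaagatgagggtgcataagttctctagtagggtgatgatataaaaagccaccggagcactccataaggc
CCL20: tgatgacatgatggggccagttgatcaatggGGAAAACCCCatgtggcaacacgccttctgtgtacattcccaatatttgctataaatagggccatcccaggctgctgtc

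The windows lie at chr4:73869283-73869392 for CXCL1 (plus strand), chr4:74099196-74099305 for CXCL2 (minus strand), chr4:74038690-74038799 for CXCL3 (minus strand), chr4:73740459-73740568 for CXCL8 (plus strand) and chr2:227813732-227813841 for CCL20 (plus strand). In global alignments the CXCL1 window was 93.7% identical to that of CXCL2 and 90% to that of CXCL3, against 45.3% to that of CXCL8. The windows of CXCL5 and CXCL6, which are not printed, were 91% identical to each other. In the 250 bases before the start, on either strand, GGAATTTCC was present in 6 of the 7 genes and in 0.413% of 35116 RefSeq promoters, beginning 77 to 91 bases before the start. The kappaB consensus was searched as GGGRNWYYCC (R for A or G, Y for C or T, W for A or T, N for any base). It was present in 6 of the 7 and in 5.21% of promoters, and its matches overlap GGAATTTCC in CXCL1, CXCL2, CXCL3, CXCL5 and CXCL6. CXCL8 had no match, because T stands on both sides of its GGAATTTCC, where the pattern needs G before or C after it. Missing this pattern does not mean that a gene lacks an NF-kB site. The pattern TGANTCA, which takes in AP-1 motifs, matched in CXCL8 alone of the 7. That match, TGACTCA, begins 137 bases before the start, and 6.57% of promoters held a match to the pattern. These matches describe letters in a window and not bound sites.

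The labels held for the targeted genes. SIRT6 was at 5.17 to 7.17 FPKM in control, 0.487 to 0.795 FPKM in siSIRT6 and 4.6 to 5.39 FPKM in siKDM5C libraries, and KDM5C at 18 to 18.8, 17.6 to 17.9 and 3.31 to 3.89 FPKM. FPKM are fragments per kilobase of gene, scaled to sequencing depth, so levels of different genes can be compared per length. Depth, the total behind the FPKM scaling, was 18201413 to 26910442 reads per library, worked out from the steps of the FPKM values. The epithelial markers KRT7, KRT8, KRT18, KRT19 and EPCAM were all present, although EPCAM was near 1 FPKM in control. Their summed level was 1090 to 1140 FPKM in control, 1400 to 1510 in siSIRT6 and 695 to 856 in siKDM5C. Most of that sum was KRT8, KRT18 and KRT19, and not every marker followed it. By the test against control, 3 of the 5 markers rose and 1 fell after siSIRT6. After siKDM5C 1 rose and 3 fell. Mean KRT7 fell from 6.38 to 4.4 FPKM after siSIRT6 (adjusted p = 0.0163). Mean EPCAM rose from 0.988 to 2.93 FPKM after siKDM5C (adjusted p = 0.000256). KRT19 was at 148 FPKM in control and 152 after siKDM5C (adjusted p = 0.68). Transcripts of mitochondrial DNA took 8.07% to 9.77% of reads in control, 6.5% to 6.88% in siSIRT6 and 5.65% to 6.59% in siKDM5C. The part of the epithelial and mitochondrial shifts in the results was not tested.

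In control cells CCL2 was by far the most abundant of the 10 transcripts, at 74.8 ± 11.4 FPKM (SD, n = 3), above 96.1% of tested genes. CXCL1 followed at 18.9 ± 2.06, CXCL8 at 15.7 ± 1.59, CX3CL1 at 15.4 ± 0.113, CXCL2 at 13.3 ± 1.82 and CCL20 at 10.9 ± 0.882 FPKM. The ranges of CXCL1 and CXCL8 overlapped across the controls, but CXCL1 was above CXCL8, and CXCL8 above CXCL2, within each of the 3 libraries. The order of CX3CL1 against CXCL8 and against CXCL2 changed from library to library. CCL5, CXCL3 and CXCL5 stood at 3.16 ± 3.01, 2.34 ± 0.139 and 1.34 ± 0.632 FPKM, and their libraries overlapped too, except those of CXCL3 and CXCL5. CXCL6 was close to absent, with 0 to 2 reads per library in all 9 libraries, and 0 reads allow up to 0.0804 FPKM in the shallowest library (3 reads, counting error only). Of the 10 genes, 8 passed the filter of at least 1 FPKM in at least 3 libraries, and 6 of these were at or above 1 FPKM in all 9. CXCL3 reached 1 FPKM in 7 libraries, all 3 controls among them, and CCL5 in 5. CXCL5 reached it in 2 control libraries only and was not tested, nor was CXCL6.

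**Figure D1:**
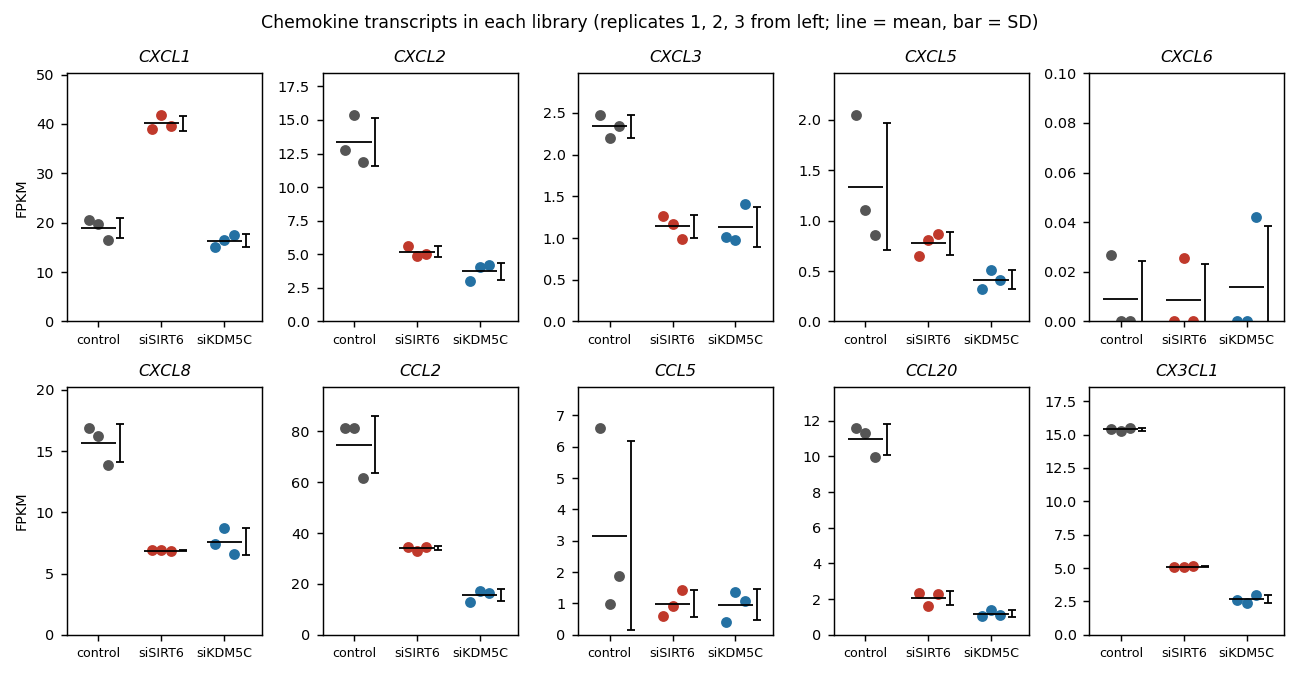
FPKM of each chemokine gene in every library, 1 panel per gene with its own axis from 0; points are replicates 1 to 3, lines are group means and bars SD. CXCL1 is the gene whose siSIRT6 libraries (38.9 to 41.9 FPKM) lie above control (16.6 to 20.5 FPKM), while CCL2, CCL20 and CX3CL1 step down from control to siSIRT6 to siKDM5C.

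With siSIRT6 the CXCR2 ligands moved in opposite directions from control: CXCL1 rose, and CXCL2, CXCL3 and CXCL8 fell. Over all members, 6 of the 10 genes fell, 1 rose, 1 did not pass and 2 were not tested, where 26.9% of the 16135 tested genes fell and 23.9% rose. The 8 tested chemokine genes had a median log2 fold change of -1.09, against -0.045 over all tested genes. In RNA from whole cultures, fewer cells that express a gene and less RNA per cell cannot be told apart. The siSIRT6 libraries lay entirely below control for 6 of the 8 tested members and entirely above for 1, while 35.2% and 30.3% of tested genes did so, 65.5% in either direction.

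CXCL1, which with CXCL2 and CXCL3 forms the GRO group of neutrophil attractants, was at 20.5, 19.8 and 16.6 FPKM in the controls, against 38.9, 41.9 and 39.6 FPKM with siSIRT6 and 15.1, 16.4 and 17.6 FPKM with siKDM5C. All 3 siSIRT6 libraries were above every other library, and siKDM5C and control overlapped. The rise after siSIRT6 was 1.05 on the log2 scale (interval 0.85 to 1.24, adjusted p = 2.46e-05). By that scale, which understates rises of low genes, 293 of the 16135 tested genes had a higher value. After siKDM5C the log2 fold change of CXCL1 was -0.20 (adjusted p = 0.0851), which did not pass. Without control replicate 3 it did (-0.28, adjusted p = 0.0138).

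CXCL2 was at 12.8, 15.4 and 11.9 FPKM in the controls, against 5.64, 4.89 and 5.05 FPKM with siSIRT6 and 3.03, 4.02 and 4.21 FPKM with siKDM5C. The groups did not overlap, with control highest and siKDM5C lowest. Its fall was -1.21 after siSIRT6 (interval -1.48 to -0.93, adjusted p = 6.99e-05) and -1.59 after siKDM5C (interval -1.87 to -1.32, adjusted p = 1.54e-05), both on the log2 scale. CXCL3, the least abundant tested member of the GRO group, was at 2.48, 2.2 and 2.34 FPKM in the controls, against 1.26, 1.17 and 0.988 FPKM with siSIRT6 and 1.01, 0.974 and 1.41 FPKM with siKDM5C. Both knockdowns lay below control and overlapped each other, at 48.7% and 48.5% of the control mean, with log2 fold changes of -0.64 (adjusted p = 0.00062) and -0.65 (adjusted p = 0.000576). CXCL1, CXCL2 and CXCL3 are close paralogs, and 4.81%, 12.5% and 6.01% of the 50-base windows of their GENCODE transcripts occur unchanged in another of the 3, so the counting may have split some of their reads. The rest of their windows are unique to each gene within the group.

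CXCL8 (interleukin-8) was at 16.9, 16.2 and 13.9 FPKM in the controls, against 6.9, 6.91 and 6.84 FPKM with siSIRT6 and 7.44, 8.76 and 6.56 FPKM with siKDM5C. Each knockdown lay below all controls, and the knockdowns overlapped. The log2 fold changes of CXCL8 were -1.08 (adjusted p = 5.14e-05) after siSIRT6 and -0.96 (adjusted p = 9.35e-05) after siKDM5C. CXCL5, another neutrophil attractant, had 91, 51 and 39 recovered reads in control (2.05, 1.1 and 0.858 FPKM), 31, 38 and 57 reads in siSIRT6 (0.647, 0.808 and 0.87 FPKM) and 15, 23 and 23 reads in siKDM5C (0.322, 0.51 and 0.406 FPKM). The siKDM5C libraries of CXCL5 were below all others, and the siSIRT6 libraries overlapped control. In the fit without a filter on low values its log2 fold change was -0.37 after siSIRT6 (adjusted p = 0.195) and -0.69 after siKDM5C (adjusted p = 0.0231).

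After siKDM5C no chemokine gene rose by the test: 6 of the 10 fell, 2 did not pass and 2 were not tested, where 25.9% of tested genes fell and 25.6% rose. The genes that fell were CXCL2, CXCL3, CXCL8, CCL2, CCL20 and CX3CL1, the same 6 as after siSIRT6, and 15.1% of tested genes fell in both comparisons. Both comparisons use the same 3 control libraries. The 8 tested members had a median of -1.27 on the log2 scale, against -0.019 over all tested genes. Libraries lay entirely below control for 6 of the 8 tested members, as they did for 27.7% of tested genes, and 55.7% of tested genes were entirely below or above.

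CCL2, the monocyte attractant MCP-1, was at 81.4, 81.4 and 61.7 FPKM in the controls, against 34.7, 33.1 and 34.6 FPKM with siSIRT6 and 13, 17.3 and 16.6 FPKM with siKDM5C. The 3 groups were apart, and the lowest control library stood well above the highest siSIRT6 library. The mean fell to 45.6% of control after siSIRT6 (log2 fold change -1.10, interval -1.40 to -0.80, adjusted p = 0.000192) and to 20.9% after siKDM5C (-2.19, interval -2.48 to -1.89, adjusted p = 4.49e-06). Only 18 of the tested genes had a lower value than CCL2 after siKDM5C, on a scale that understates falls of low genes.

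CCL20, which attracts CCR6-bearing lymphocytes and dendritic cells, showed the largest fall of the 8 tested members in both comparisons. It was at 11.6, 11.3 and 9.95 FPKM in the controls, against 2.33, 1.59 and 2.28 FPKM with siSIRT6 and 1.05, 1.39 and 1.11 FPKM with siKDM5C. Every siKDM5C library was below every siSIRT6 library, and these below every control. The recovered reads behind these values were 296 to 343, 49 to 98 and 32 to 41. On the log2 scale the fall was -1.97 (adjusted p = 3.72e-06) after siSIRT6 and -2.45 (adjusted p = 1.14e-06) after siKDM5C. By that scale, which understates falls of low genes, 8 tested genes fell further than CCL20 after siKDM5C.

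CX3CL1, the membrane-bound chemokine, had the tightest control libraries of the tested members. It was at 15.4, 15.3 and 15.5 FPKM in the controls, against 5.07, 5.07 and 5.16 FPKM with siSIRT6 and 2.57, 2.41 and 2.98 FPKM with siKDM5C. No groups overlapped. The means of CX3CL1 were 33.1% and 17.2% of control, with log2 fold changes of -1.43 (interval -1.57 to -1.29, adjusted p = 9.28e-07) and -2.17 (interval -2.31 to -2.03, adjusted p = 1.2e-07).

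CCL5 (RANTES) was at 6.6, 0.979 and 1.89 FPKM in the controls, against 0.61, 0.933 and 1.44 FPKM with siSIRT6 and 0.419, 1.37 and 1.09 FPKM with siKDM5C. Control replicate 1, with 180 recovered reads against 28 and 53 in the other controls, stood apart, and the groups overlapped. The log2 fold changes were -0.84 (interval -1.86 to 0.18, adjusted p = 0.146) and -0.88 (interval -1.89 to 0.14, adjusted p = 0.132), and neither passed. Without control replicate 1 they were -0.28 (adjusted p = 0.429) and -0.32 (adjusted p = 0.375), and without control replicate 2 they were -1.25 (adjusted p = 0.0386) and -1.29 (adjusted p = 0.0348), which passed. Of the 50-base windows of CCL5 transcripts, 13.9% occur in transcripts of other genes, 288 in number, so reads from repeated sequence can enter this value. An antisense gene that overlaps CCL5 did not exceed 0.135 FPKM, and the other tested members overlap no other annotated gene.

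**Figure D2:**
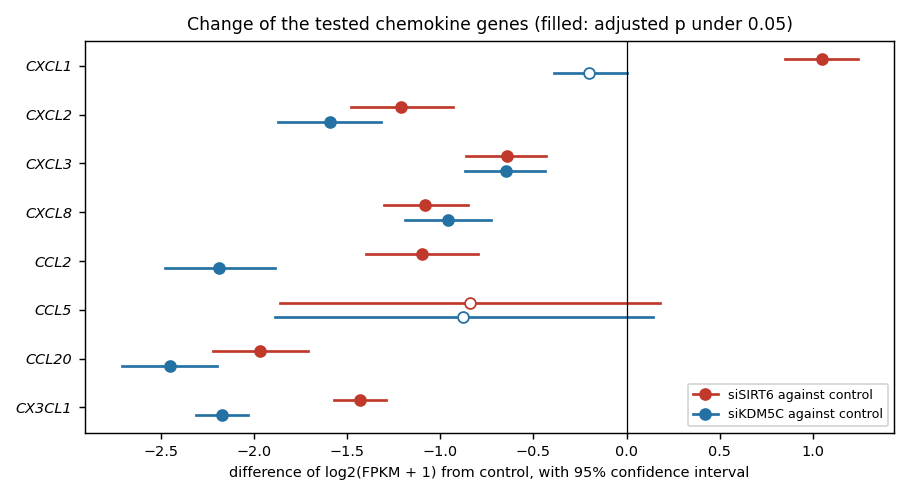
Difference of log2(FPKM + 1) from control with its 95% confidence interval for the 8 tested chemokine genes, siSIRT6 in red and siKDM5C in blue; filled points passed the test. CXCL1 after siSIRT6 (1.05) is the single point to the right of 0, and the intervals of the knockdowns lie apart for CXCL1, CCL2 and CX3CL1.

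The direct comparison of siSIRT6 with siKDM5C asked whether the knockdowns differed from each other. CXCL1, CXCL2, CCL2, CCL20 and CX3CL1 were higher in siSIRT6, 0 were lower and 3 of the 8 tested did not pass, where 18.6% of tested genes were higher and 21.3% lower, 39.9% in either direction. The difference was 1.25 for CXCL1 (interval 1.05 to 1.44, adjusted p = 1.99e-05), 1.09 for CCL2 (interval 0.79 to 1.38, adjusted p = 0.000327) and 0.74 for CX3CL1 (interval 0.60 to 0.88, adjusted p = 4.57e-05) on the log2 scale. It was 0.49 for CCL20 (interval 0.23 to 0.74, adjusted p = 0.0089) and 0.39 for CXCL2 (interval 0.12 to 0.66, adjusted p = 0.0305). The CXCL2 difference did not pass without any one of the siSIRT6 replicates 1, 2 or 3 (adjusted p = 0.0994, 0.0552 and 0.0667) or without siKDM5C replicate 1 (0.27, adjusted p = 0.0837). For CXCL3 the difference was 0.01, with an interval of -0.21 to 0.22, and for CXCL8 it was -0.12, with an interval of -0.34 to 0.11. For CCL5 the difference was 0.04, with a wide interval of -0.98 to 1.05.

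The make-up of the chemokine transcripts changed with their sum. The 10 genes summed to 135 to 170 FPKM in control libraries, 96 to 96.8 FPKM in siSIRT6 and 43.9 to 53.1 FPKM in siKDM5C, with no overlap between groups. The 6 neutrophil-attracting CXC genes summed to 51.7 ± 5.25 FPKM in control, 54.1 ± 1.36 in siSIRT6 and 29.3 ± 2.06 in siKDM5C, so that control and siSIRT6 overlapped. Without CXCL1 the other 5 summed to 32.7 ± 3.22, 14.0 ± 0.379 and 12.9 ± 1.28 FPKM. CXCL1 made up 36.7% ± 0.643 of the CXC sum in control, 74.1% ± 1.15 in siSIRT6 and 55.9% ± 2.45 in siKDM5C.

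Ratios within a library do not depend on the scaling between libraries. CXCL1 stood at 1.29 to 1.6 times the level of CXCL2 in control, 6.9 to 8.56 times in siSIRT6 and 4.07 to 4.98 times in siKDM5C libraries, which do not overlap. The ratio of CXCL1 to CXCL8 was 1.2 to 1.22, 5.63 to 6.05 and 1.87 to 2.69. CCL2 took 47.8% ± 1.96 of the summed level of the 10 genes in control, 35.4% ± 0.889 in siSIRT6 and 31.3% ± 1.63 in siKDM5C. In siSIRT6 libraries CXCL1, at 41.6% ± 1.57 of the sum, was above CCL2 as the most abundant of the 10 transcripts, and in siKDM5C libraries the levels of both overlapped, CXCL1 taking 33.0% ± 1.95.

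**Figure D3:**
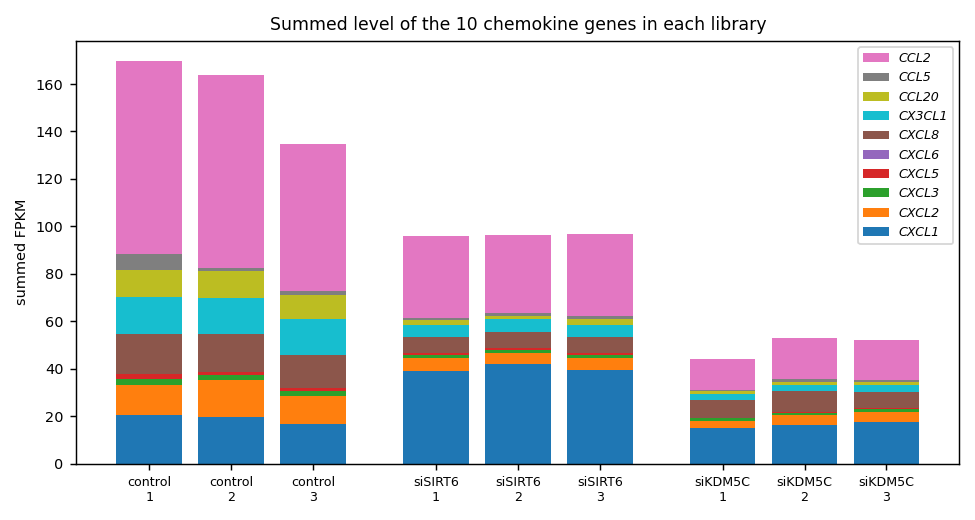
Summed FPKM of the 10 chemokine genes in each of the 9 libraries, stacked by gene from CXCL1 at the bottom to CCL2 at the top. The totals are 135 to 170 in control, 96 to 96.8 in siSIRT6 and 43.9 to 53.1 in siKDM5C, and the CXCL1 segment is tallest in siSIRT6.

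Of 34 other chemokine ligand genes on a list, 22 had values, and CXCL16 alone was high enough to be tested. CXCL16 is, like CX3CL1, made as a membrane protein, and it ligates CXCR6. It was at 5.17, 5.43 and 5.87 FPKM in the controls, against 1.26, 1.58 and 1.29 FPKM with siSIRT6 and 1.14, 1.26 and 1.02 FPKM with siKDM5C, so both knockdowns lay below control. CXCL16 fell by 1.45 (adjusted p = 2.92e-06) and by 1.60 (adjusted p = 1.56e-06) on the log2 scale. The other 21 did not exceed 0.846 FPKM in any library, among them the interferon-induced CXCL10 and CXCL11. Of 23 chemokine receptors, 18 had values and 3 were tested. CXCR1 and CXCR2, the receptors of the CXC ligands above, did not exceed 0.0213 and 0.0483 FPKM, and CCR6 did not exceed 0.174 FPKM. CCR10, a receptor of skin and mucosal chemokines, was the single receptor that passed, with a fall from 2.51 ± 0.177 to 1.18 ± 0.0781 FPKM after siSIRT6 (-0.69, adjusted p = 0.00132) and to 1.66 ± 0.461 FPKM after siKDM5C (-0.41, adjusted p = 0.0167), while CXCR5 and ACKR4 did not.

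Counts for lists of related genes are read against all tested genes, of which 26.9% fell and 23.9% rose after siSIRT6, and 25.9% fell and 25.6% rose after siKDM5C. Of 21 tested transcription factors and inhibitors known to act at chemokine promoters, 16 fell, 2 rose and 3 did not pass after siSIRT6 (median log2 fold change -0.38), and 14 fell, 4 rose and 3 did not pass after siKDM5C (median -0.42), against medians of -0.045 and -0.019 over all tested genes. NFKB1, the precursor of an NF-kB subunit, fell from 11.7 ± 0.320 to 5.44 ± 0.207 FPKM after siSIRT6 and to 7.35 ± 0.132 FPKM after siKDM5C. TNFAIP3, an inhibitor of NF-kB signalling that NF-kB induces, fell from 8.97 ± 0.432 to 2.89 ± 0.242 and 2.72 ± 0.145 FPKM. IRF1, an interferon-induced factor, fell from 11.2 ± 0.463 to 4.61 ± 0.157 and 2.57 ± 0.126 FPKM. STAT3, which carries signals of the IL-6 family, rose from 19.8 ± 0.616 to 38.6 ± 0.386 FPKM after siSIRT6 (0.93, adjusted p = 1.62e-06) and to 24.0 ± 0.669 FPKM after siKDM5C (0.27, adjusted p = 0.00135).

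Of 10 tested cytokines and receptors that act upstream of chemokine genes, 3 rose and 4 fell after siSIRT6 (median log2 fold change -0.04), and 2 rose and 4 fell after siKDM5C (median -0.14). With 23.9% and 25.6% of all tested genes rising and 26.9% and 25.9% falling, counts this small show no result for the list. TNFRSF1B, a TNF receptor, fell from 46.7 ± 3.37 to 17.9 ± 0.412 and 14.6 ± 0.660 FPKM, and IL1R1, the signalling IL-1 receptor, rose from 0.937 ± 0.116 to 2.20 ± 0.0494 and 3.50 ± 0.227 FPKM. OSMR, the receptor subunit for oncostatin M, fell after siSIRT6, from 28.8 ± 2.69 to 14.8 ± 0.0536 FPKM, and was at 26.2 ± 2.42 FPKM after siKDM5C (adjusted p = 0.22). The adaptor MYD88 fell by 0.20 and by 0.33 on the log2 scale (adjusted p = 0.00875 and 0.000543).

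Chemokine mRNAs are short-lived, and RNA-binding proteins set their decay. Of 10 such genes, 7 fell and 0 rose after siSIRT6 (median log2 fold change -0.37), and 6 fell and 2 rose after siKDM5C (median -0.36), where 26.9% and 25.9% of all tested genes fell. ZFP36 (tristetraprolin), which promotes decay at AU-rich elements, fell from 291 ± 17.5 to 156 ± 2.72 FPKM after siSIRT6 (-0.89, adjusted p = 7.36e-06) and was at 266 ± 10.7 FPKM after siKDM5C (-0.13, adjusted p = 0.0988). The difference between the knockdowns passed for ZFP36 (adjusted p = 3.1e-05). ZC3H12A (regnase-1), an endonuclease for inflammatory mRNAs, fell from 17.2 ± 0.151 to 9.24 ± 0.351 and 6.92 ± 0.985 FPKM. ZFP36L1 was at 19.3 ± 0.585 FPKM in control and rose to 25.7 ± 1.34 FPKM after siKDM5C, and TIAL1 fell from 18.0 ± 0.314 to 12.8 ± 0.435 and 13.8 ± 0.901 FPKM.

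Genes for shedding, trimming and binding chemokines rose in 8 of 12 tested cases after either knockdown, with 2 falls and 2 not passed each time, where 23.9% of all tested genes rose after siSIRT6 and 25.6% after siKDM5C. The medians of the list were 0.44 and 0.53 on the log2 scale. ADAM17, a protease that releases CX3CL1 from the membrane, fell from 9.82 ± 0.564 to 2.86 ± 0.122 FPKM after siSIRT6 (-1.49, adjusted p = 8.43e-07) and to 4.77 ± 0.307 FPKM after siKDM5C (-0.91, adjusted p = 9.49e-06). ADAM10, another protease of the list, was not among those picked by smallest adjusted p. It rose from 11.3 ± 0.367 to 13.7 ± 0.319 FPKM after siSIRT6 (0.26, adjusted p = 0.0213). After siKDM5C ADAM10 was at 9.94 ± 1.25 FPKM (-0.17, adjusted p = 0.0952), which did not pass. ANPEP, an aminopeptidase of the cell surface, rose from 325 ± 19 to 490 ± 6.33 and 858 ± 30.4 FPKM. CTSC, a lysosomal dipeptidyl peptidase, rose from 3.30 ± 0.210 to 7.30 ± 0.0938 and 7.93 ± 0.243 FPKM, and SDC3, a heparan sulfate proteoglycan, from 9.00 ± 0.563 to 18.1 ± 0.402 and 14.7 ± 0.664 FPKM.

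**Figure D4:**
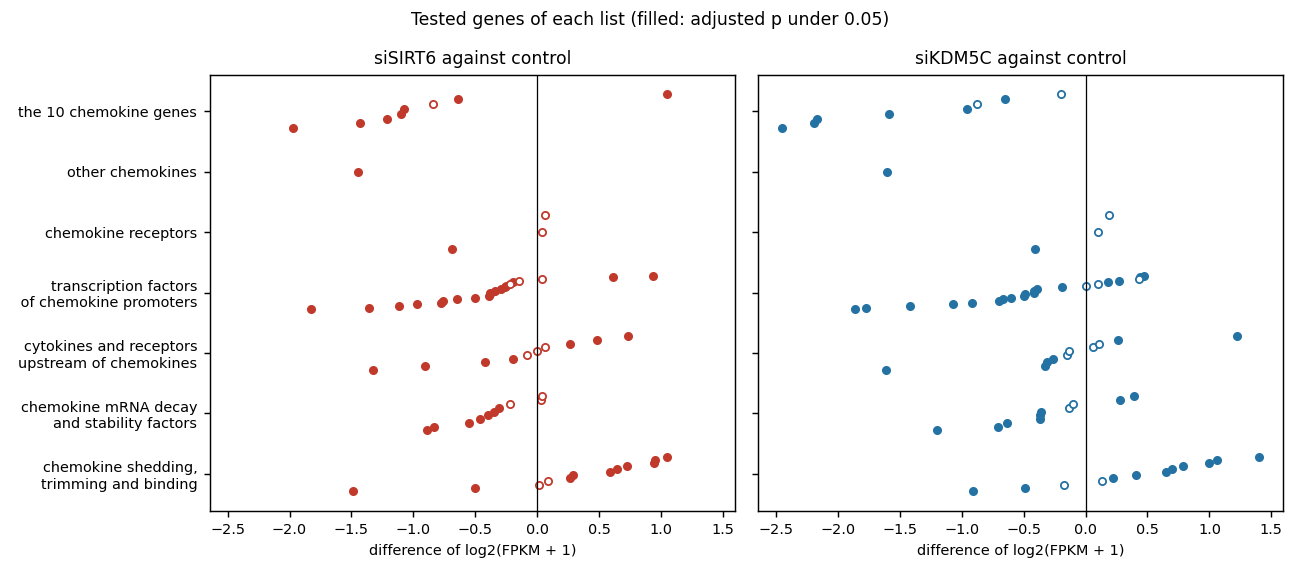
Differences of log2(FPKM + 1) from control for the tested genes of 7 lists, siSIRT6 on the left and siKDM5C on the right; each point is a gene and filled points passed the test. In the list of shedding, trimming and binding genes 8 of 12 rose in each comparison, and in the list of transcription factors 16 and 14 of 21 fell.

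Within 500 kb of the CXC genes on chromosome 4, 3 other protein-coding genes were tested, of which the EGF receptor ligand genes EREG (74365143 to 74388751) and AREG (74445134 to 74455009) rose in both knockdowns and ANKRD17 did not pass. AREG was at 4.18, 4.5 and 4.37 FPKM in the controls, against 14.6, 16 and 16.1 FPKM with siSIRT6 and 29.6, 26.7 and 27.2 FPKM with siKDM5C, with no overlap between groups. EREG was at 12.3, 13.2 and 8.34 FPKM in the controls, against 32.2, 33.6 and 32.8 FPKM with siSIRT6 and 23.5, 36 and 24.3 FPKM with siKDM5C. Around all 10 members, 24 neighbours were tested, of which 11 rose and 5 fell after siSIRT6, and 9 rose and 6 fell after siKDM5C. Over all tested genes 23.9% rose and 26.9% fell after siSIRT6, and 25.6% rose and 25.9% fell after siKDM5C, so the falls among neighbours after siKDM5C were near the background. SLFN12 near CCL5 fell from 7.42 ± 0.317 to 4.39 ± 0.231 and 2.50 ± 0.207 FPKM. Near CX3CL1, HERPUD1 fell and ADGRG1 and POLR2C rose in both comparisons.

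Each tested member was set beside all other tested protein-coding genes by Pearson's r of log2(FPKM + 1) over the 9 libraries, as a description, since the libraries fall into 3 groups. CX3CL1 was most alike to TRAF1 (r = 0.998), IRF1 (0.997) and ADORA2A (0.997), and CCL2 to B2M (0.994), IFIH1 (0.994) and SERPINB9 (0.993). CCL20 was most alike to CCND1 (0.995), DCAF1 (0.995) and CREG1 (0.995). CXCL8 stood nearest to PCNX4 (0.998), RAB3B (0.997) and PTBP2 (0.996), CXCL2 to OPLAH (0.994) and RUNDC1 (0.992), and CXCL3 to UHRF1 (0.988), RELB (0.987) and PTK7 (0.987). CXCL1, with its own course, was nearest to MVK (0.993), AMOT (0.992) and DOP1B (0.992). CCL5 had no partner above 0.884, that of MRPL23, followed by RGL2 (0.866) and NFIL3 (0.862).

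Markers of leukocytes, which also make these chemokines, were low throughout. Of 7 listed markers 5 had values, and their summed level was 2.87 to 3.28 FPKM in control, 1.68 to 1.86 in siSIRT6 and 1.89 to 2.17 in siKDM5C, nearly all of it CD14 (2.96 ± 0.233, 1.70 ± 0.0938 and 1.95 ± 0.159 FPKM). PTPRC, the marker shared by leukocytes, did not exceed 0.012 FPKM in any library. Of 5 fibroblast markers 3 were under 1 FPKM in all libraries, DCN not exceeding 0.00809 FPKM, while COL1A1 rose from 16 ± 0.514 to 41.4 ± 0.959 FPKM after siSIRT6 and was at 15.6 ± 1.12 FPKM after siKDM5C. COL3A1 rose from 0.320 ± 0.0247 to 1.72 ± 0.161 FPKM after siSIRT6 and to 1.10 ± 0.0807 FPKM after siKDM5C (adjusted p = 1.05e-05 and 0.00012). All 4 endothelial markers were under 1 FPKM. The part of CD14, COL1A1 and COL3A1, which moved with the groups, in the chemokine results was not tested.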

How the data were processed

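RNA sequencing of 9 libraries was deposited as FPKM values (fragments per kilobase of gene, scaled to depth) made by the authors, with 36753 Ensembl genes in every library. Per the submitters' processing notes, Trimmomatic, HISAT2, Cufflinks, HTSeq and the hg38 build were used. The sources used here name no versions, annotation or strand setting for the counting, although the kit keeps strand, per the labels. The unit was read from the values, whose low levels are whole multiples of 1 step per gene and library. These steps gave whole reads for nearly all genes (tolerance 0.01 of a read) and a depth of 18201413 to 26910442 reads per library. The recovered reads summed to slightly more, 18269215 to 27014557 per library, and the cause was not tested. The exon length from GENCODE gave whole reads for 58.93% of genes, among them CXCL3, CCL2 and CCL20. For the rest, with the other chemokine genes, a length that gave whole reads was searched for, so their read counts rest on a fitted length. Gene symbols were looked up by identifier (36659 matched) and coordinates from GENCODE release 29 (GRCh38).

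Testing used limma 3.58.1 (R 4.3.3) on log2(FPKM + 1), for the 16135 genes that reached 1 FPKM in 3 or more libraries. The fit had a term per group over all 9 libraries, a trended prior and 6 residual degrees of freedom. Tests were two-sided, with Benjamini-Hochberg adjustment over all tested genes and a threshold of 0.05. Fold changes on this scale understate the change of low genes. The fit was also run on simulated reads with the same spread in all groups. The spread between replicates here differed by group, so that run checks the code and not these results. The fit to the data also pools the spread of each gene over all 9 libraries. Its intervals and p-values therefore do not follow the spread within each group. Errors are SD over 3 libraries, and intervals are 95% confidence intervals.

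The chemokine genes and the other lists were chosen with earlier results of these data known. The named genes were all 10 chemokine genes, up to 4 genes per list with the smallest adjusted p among those past the threshold against control, up to 6 protein-coding genes within 500 kb of a member, and the 3 genes most alike in pattern to each tested member, of which 1 is not reported here. Alternatives were another pseudocount, other filters, median-of-ratios scaling, the groups compared alone, replicate number as a block, limma-voom on recovered reads, and each library left out. Same-numbered libraries of different groups did not deviate together (correlations of deviations from -0.229 to 0.252), so the numbers were not taken as pairs.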

Additional observations from a re-analysis of the deposited data

Results flagged for a closer look

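For 5 chemokine genes the effect of the knockdowns differed, by the direct test of siSIRT6 against siKDM5C. CXCL1 was 1.25 higher in siSIRT6 on the log2 scale, CCL2 1.09, CX3CL1 0.74, CCL20 0.49 and CXCL2 0.39. For CXCL1 the fold changes against control had opposite signs (1.05 and -0.20), of which the second did not pass. For CCL2, CX3CL1, CCL20 and CXCL2 both knockdowns fell below control and siKDM5C lay lower. Of the 8 tested members, these 5 had each siSIRT6 library above each siKDM5C library, as did 23.9% of tested genes. The 5 were picked by the test on the same libraries, so their separation adds nothing to that test.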

How the results depend on the processing

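Over 378 recomputed values of the 24 chemokine results, 370 kept their side of the threshold, 5 lost a call and 3 gained one. No called direction was reversed. Small differences that did not pass could change sign. Between the knockdowns CXCL3 went from 0.01 to -0.02 with limma-voom, and CCL5 from 0.04 to -0.18 without siKDM5C replicate 1. All 5 losses concerned CXCL2 between the knockdowns, 4 with a library left out and 1 without a filter on low values (0.39, adjusted p = 0.0709). The 3 gains were CCL5 without control replicate 2 in both knockdowns and CXCL1 after siKDM5C without control replicate 3. The cause was not tested. With at least 5 FPKM, genes past the threshold numbered 5367 of 9446 tested after siSIRT6 and 5418 after siKDM5C, since fewer genes were tested. Median-of-ratios scaling turned the balance of calls over all genes to 4272 higher and 3893 lower after siSIRT6 (from 3861 and 4333) and to 3449 and 2990 between the knockdowns (from 3009 and 3433), and changed no chemokine call. With the replicate block, 8130, 8245 and 6386 genes passed for siSIRT6, siKDM5C and the direct comparison, and 7, 6 and 5 chemokine genes, so the block changed no chemokine call. Limma-voom on recovered reads gave the same 3 chemokine counts. Depth limits CXCL5 and CXCL6 (at most 91 and 2 reads), and counting intervals do not cover other errors.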

Other observations

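TNF, the cytokine that drives several of these chemokine genes through NF-kB, was below the filter on low values and was picked after its values were seen. It had 31, 38 and 22 recovered reads in control (1.01, 1.19 and 0.702 FPKM), 4, 0 and 1 reads in siSIRT6 and 0, 3 and 2 reads in siKDM5C. Without a filter the difference of log2(FPKM + 1) for TNF was -0.90 in both comparisons with control (adjusted p = 0.000386 and 0.00038). At levels this low that scale understates the change, the means being 0.968 FPKM in control, 0.0478 in siSIRT6 and 0.0493 in siKDM5C. IL1A, IL1B and IL6 did not exceed 0.467, 0.125 and 0.108 FPKM in any library.

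Deviations from the group means were shared between control replicate 3 and siKDM5C replicate 1 (r = 0.426 over genes). Both libraries were the lowest of their group for CXCL1, CXCL2, CXCL5, CCL2 and CCL20, genes picked here after their values were seen. They were not both lowest for CXCL3, CXCL8, CCL5 and CX3CL1. No label gives these libraries a number or batch in common.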
